A study of Mus musculus with 460 samples.

Results

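The 10 genes described are Slc2a1, which encodes the glucose transporter GLUT1, and Hk2, Pfkp, Aldoa, Tpi1, Gapdh, Pgk1, Eno1, Pkm and Ldha, which encode enzymes that turn glucose into pyruvate and lactate. They were chosen by symbol, and all 10 were found among the 48440 genes of the table. They were measured by single-cell RNA-seq in 460 cells labelled as CAFs (cancer-associated fibroblasts) of mice with lung adenocarcinoma. The source is given as tCAFs, an abbreviation that the labels do not spell out, from mice of 1 strain. No treatment, age, sex, animal number or control group is named, so the cells are treated as a single sample without any test of significance. Intervals describe counting error alone.

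Glycolysis splits each glucose into a pair of pyruvate molecules and yields ATP without oxygen. Entry is controlled by the transporter, by hexokinase, which traps glucose as glucose 6-phosphate, and by phosphofructokinase, and pyruvate kinase catalyses a further irreversible step at the end, while most steps between work near equilibrium. Lactate dehydrogenase regenerates the NAD+ that the pathway consumes. Activated fibroblasts and tumour cells are known for high glycolytic flux, and the transcription factor HIF-1 is known to raise most of these genes in low oxygen. Rgs5, a regulator of G protein signalling, marks pericytes, and Pdgfra, a receptor for platelet-derived growth factor, marks fibroblasts. Of the 5 genes whose promoters are shown, Aldoa lies at chr7:126795234-126800751 and Hk2 at chr6:82725025-82774454 on the minus strand, and Ldha at chr7:46841475-46855627, Pkm at chr9:59656368-59679375 and Slc2a1 at chr4:119108711-119137983 on the plus strand (GENCODE vM21, GRCm38, the assembly also called mm10).

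Promoter sequences are shown first for 5 genes, 3 later enzymes that varied together and the transporter and hexokinase genes of the entry. Each runs 5′ to 3′ from 250 bases before to 50 bases after a RefSeq start site of build GRCm38.p6, on the gene's strand. Capitals mark ACGTG or its reverse complement CACGT, a form of the core of the hypoxia response element. The form with G as its first base, GCGTG, was not searched. Where RefSeq lists several promoters for a gene, one that holds the most matches is shown.
Aldoa, chr7:126799205-126799504, minus strand: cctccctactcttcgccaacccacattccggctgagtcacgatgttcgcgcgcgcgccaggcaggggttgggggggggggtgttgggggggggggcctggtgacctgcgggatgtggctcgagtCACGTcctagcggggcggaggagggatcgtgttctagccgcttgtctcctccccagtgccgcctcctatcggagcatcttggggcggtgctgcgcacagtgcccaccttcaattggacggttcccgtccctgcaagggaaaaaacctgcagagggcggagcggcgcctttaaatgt
Pkm, chr9:59656977-59657276, plus strand: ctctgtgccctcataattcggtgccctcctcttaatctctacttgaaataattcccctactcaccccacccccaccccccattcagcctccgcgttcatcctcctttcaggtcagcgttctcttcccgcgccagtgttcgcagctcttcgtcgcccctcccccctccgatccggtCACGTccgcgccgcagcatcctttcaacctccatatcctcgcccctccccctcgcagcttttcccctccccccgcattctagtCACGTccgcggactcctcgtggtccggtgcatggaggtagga
Ldha, chr7:46845554-46845853, plus strand: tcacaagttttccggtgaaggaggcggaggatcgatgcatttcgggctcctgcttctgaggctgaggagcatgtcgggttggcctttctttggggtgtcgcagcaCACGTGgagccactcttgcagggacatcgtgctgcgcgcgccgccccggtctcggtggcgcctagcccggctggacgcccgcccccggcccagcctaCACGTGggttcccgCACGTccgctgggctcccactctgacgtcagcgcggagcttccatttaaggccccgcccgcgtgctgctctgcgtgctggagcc
Slc2a1, chr4:119108495-119108794, plus strand: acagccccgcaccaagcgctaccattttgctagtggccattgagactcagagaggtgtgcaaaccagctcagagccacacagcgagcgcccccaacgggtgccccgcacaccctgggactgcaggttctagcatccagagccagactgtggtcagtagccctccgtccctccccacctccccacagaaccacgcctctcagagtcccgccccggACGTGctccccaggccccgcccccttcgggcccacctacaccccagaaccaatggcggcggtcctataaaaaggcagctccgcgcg
Hk2, chr6:82774405-82774704, minus strand: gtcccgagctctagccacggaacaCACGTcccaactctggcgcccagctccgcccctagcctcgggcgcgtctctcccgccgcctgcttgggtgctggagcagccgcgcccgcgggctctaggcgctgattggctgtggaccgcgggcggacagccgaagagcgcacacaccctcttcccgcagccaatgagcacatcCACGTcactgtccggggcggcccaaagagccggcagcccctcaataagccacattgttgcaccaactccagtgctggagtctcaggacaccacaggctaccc
In these windows Ldha holds 5 matches, which begin at positions -145, -144, -48, -47 and -34 from the start site. Both neighbouring pairs are the palindrome CACGTG, the E-box bound by MYC, read on each strand, so that motif overlaps the core and each copy gives 2 matches. Pkm holds matches at -75 and 9, Hk2 at -226 and -52, Slc2a1 at -36 and Aldoa at -126. The 10 genes together matched 16 promoters, and all 27025 genes 32851. Of the 10, 7 hold ACGTG or CACGT in at least 1 promoter, against 21.8% of the 27025 genes. Neither the number of promoters per gene nor base content was matched in comparisons with all genes. GGGCGG, the GC box, or its reverse complement CCGCCC was found for 9 of 10, against 38.2% of all genes, and CACGTG for Ldha only, against 8.09%. A match is a description of letters and says nothing of binding. Eno1, Pfkp and Tpi1 hold no ACGTG or CACGT in their windows, which does not mean that they lack GCGTG.

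Depth lay between 25029 and 240496 molecular barcode counts per cell (median 88701), and no columns were identical. Among the fibroblast markers 10 of 12 were found in 90% of cells or more, as were 6 of 10 pericyte or vascular smooth muscle markers. Epcam, Ptprc and Pecam1, which mark epithelium, leukocytes and endothelium, had a count in 5.43%, 11.3% and 16.3%. Whole lists were counted more often. At least 2 epithelial or lung tumour markers were counted in 73.9% of cells with more Rgs5 than Pdgfra counts and 77.4% of the others. For at least 2 immune markers the shares were 61.1% and 61.9%, and for endothelial markers 28.6% and 25.3%. In runs of neighbouring columns that make up 27.6% of the cells the surfactant gene Sftpc was low (56.07 CPM, counts scaled to a sum of 1000000, against 618 CPM in the other 72.4%), although the labels name no batch. These runs serve as a split of the cells. Cells with more Rgs5 than Pdgfra counts, called Rgs5-over-Pdgfra cells, made up 44.1% of the 460 (exact Clopper-Pearson interval 39.5 to 48.8), and the other cells 55.9%. Every cell had counts of both genes, none were tied, and in 70 cells the 2 counts lay within 2-fold of each other. In the other 390 cells they lay further apart. The classes are cut from these 2 counts alone, and whether they are separate cell types was not tested.

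The 10 genes together made up 2186 CPM, or 0.219% of all counts, and 7 genes from aldolase to lactate dehydrogenase held 86.7% of that. Gapdh, which encodes glyceraldehyde 3-phosphate dehydrogenase, was the most counted at 522 CPM (exact Poisson interval 515 to 529). Single cells ranged from 26.2 to 1915 CPM of it, with a median of 464. Aldoa, the muscle and ubiquitous aldolase, had 441.9 CPM (435.6 to 448.2) and a range over cells of 28.9 to 1798 CPM around a median of 380. Both genes were counted in all 460 cells, which puts the lower exact Clopper-Pearson limit at 99.2% of cells.

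Pkm, for pyruvate kinase, and Ldha, for the A subunit of lactate dehydrogenase, stood close together behind them. Pkm had 344.4 CPM (338.8 to 350), and its cells lay between 0 and 1489 CPM with a median of 294.6. Ldha had 342.9 CPM (337.4 to 348.5), with cells between 0 and 1409 CPM and a median of 314.3. Their Poisson intervals on this scale overlap, and each was missing from only 1 cell. The counts are per gene and do not separate the M1 and M2 splice forms of Pkm.

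The remaining enzymes from aldolase on were counted less. Tpi1, for triosephosphate isomerase, had 129.8 CPM (126.4 to 133.3) in 93.9% of cells (91.3 to 95.9), with a median of 99.5 CPM and a highest cell of 768. Eno1, for enolase, had 88.9 CPM (86.1 to 91.8) in 92.4% of cells (89.6 to 94.6), with a median of 72.4 CPM and a highest cell of 496. Pgk1, for phosphoglycerate kinase, was the lowest of the 10 with 24.5 CPM (22.99 to 25.98) in 59.8% of cells (55.1 to 64.3), a median of 11.7 CPM and a highest cell of 280.9. It catalyses the step directly after Gapdh.

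At the entry of the pathway, Pfkp, the platelet-type phosphofructokinase, had 104.9 CPM (101.9 to 108.05) in 89.6% of cells (86.4 to 92.2), with a median of 81.8 CPM and a highest cell of 758. Hk2, hexokinase 2, had 95.3 CPM (92.4 to 98.3) in 68.7% of cells (64.2 to 72.9), with a median of only 26.7 CPM and a highest cell of 1359. Slc2a1 had 91.01 CPM (88.2 to 93.9) in 73.9% of cells (69.6 to 77.9), with a median of 43.4 CPM and a highest cell of 1066. The interval of Slc2a1 overlaps those of Hk2 and Eno1 on this scale, which does not correct for length. Counts of several genes were concentrated in few cells. The 10% of cells with the most Hk2 held 52.9% of its level and those with the most Slc2a1 44%, with Pgk1 alike at 44.3%. Pfkp (30.8%), Tpi1 (29.5%) and Eno1 (26.8%) lay between these and Gapdh, Ldha, Aldoa and Pkm, at 20.6% to 22.8%.

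Detection is limited by depth. With every cell thinned to 56586 counts, which left out 46 shallower cells, the share with a count was 63.3% for Hk2, 72.2% for Slc2a1, 54.8% for Pgk1 and 87.2% for Pfkp. No cell type that lacks glycolysis exists to set a background. As the nearest measure, Pklr, the liver and red cell form of pyruvate kinase, was counted in 0.652% of cells.

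Per exon length the order changed. On this scale (TPM, counts per kilobase of exon scaled to a sum of 1000000) Aldoa led with 563 TPM, followed by Gapdh with 469, Ldha with 384.5, Pkm with 255.6 and Tpi1 with 175.01. Slc2a1 had 96.3 TPM, Eno1 61.4, Hk2 59.2, Pgk1 40.4 and Pfkp, with the longest exons of the set (13401 bases), 29.1. Among 23121 named genes Pfkp ranked 5055 on this scale and 2061 by CPM. The step from reads to barcode counts is not given, and whether these counts rise with exon length was not tested. The TPM order is thus a second description and not a correction of the CPM order. Col1a1, the type I collagen gene that anchors these fibroblasts, was 100 for every 41.4 of Aldoa, 34.4 of Gapdh, 28.2 of Ldha and 2.13 of Pfkp on the same TPM scale.

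**Figure D1:**
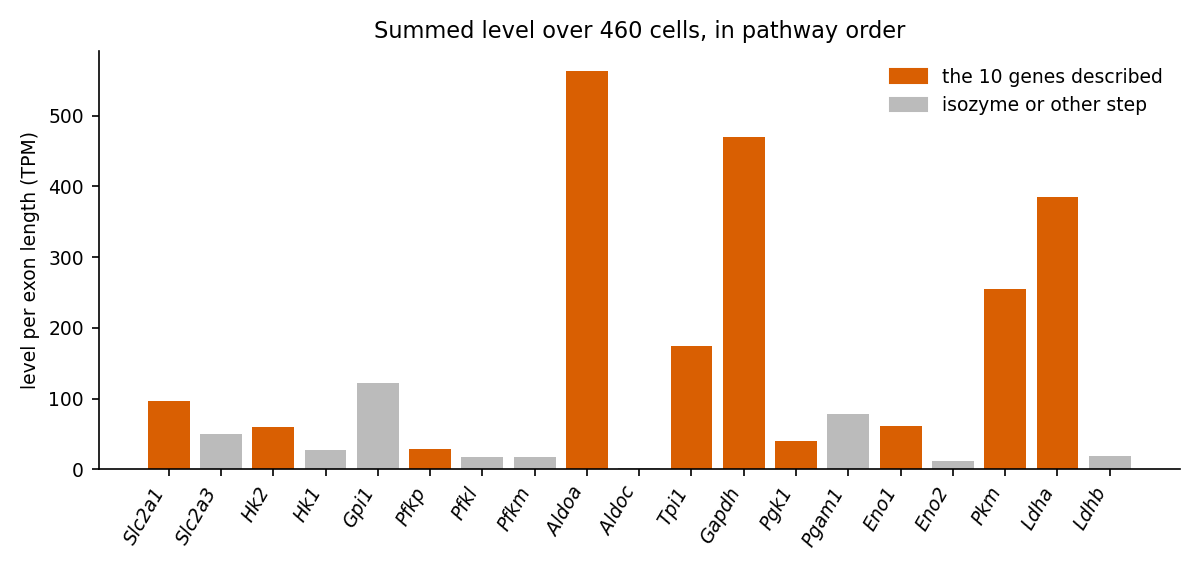
Level per exon length (TPM) of the 10 genes (orange) and of isozymes or other steps (grey), in pathway order from glucose uptake on the left to lactate dehydrogenase on the right, from counts summed over 460 cells with no replicate. Aldoa at 563 TPM, Gapdh at 469, Ldha at 384.5 and Pkm at 255.6 stand above every entry gene.

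Several steps rested on 1 isozyme. Aldoa made up 99.6% of aldolase TPM, Pkm 99.97% of pyruvate kinase and Ldha 95.04% of lactate dehydrogenase, with Ldhb, the heart-type subunit, at 7.93 CPM. Eno1 held 78.3% of enolase, and Eno2, the neuronal enolase, 14.4%. The entry steps were more mixed. Slc2a1 held 62.9%, Slc2a3 (GLUT3) 32.4% and Slc2a4, the insulin-responsive GLUT4, 4.69% of the TPM of these 3 transporters. Hk2 held 67.7% and Hk1 31.5% of hexokinase, and Pfkp 45.6%, Pfkm 27.5% and Pfkl 26.9% of phosphofructokinase. By raw counts Slc2a3 held 49.7% (48.7 to 50.8) and Slc2a1 46.8% (45.7 to 47.9) of the transporters, the other order. Pfkp held 69.3% (68.1 to 70.4) by raw counts. The places of Slc2a1 and Pfkp thus depend on whether counts are divided by length. Pgk2, the testis phosphoglycerate kinase gene, had no count, which allows up to 0.0704 CPM.

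Near-identical copies limit some of these levels. Eno1b, listed as a separate gene close in sequence to Eno1, had 16.7 CPM, 18.8% of the Eno1 count, and was the gene closest to Eno1 across cells (Spearman 0.514). Copies named after the others held 5.18% of the count for Pgk1, 2.77% for Aldoa, 2.37% for Tpi1, 0.753% for Ldha and 0.306% for Gapdh. Whether reads shared with such copies, or with unnamed pseudogenes, were dropped in counting is not stated, so the levels of Pgk1, Eno1 and Gapdh are uncertain in that respect.

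Across cells most of the genes varied together, and Hk2 and Pfkp stood apart. Between the 10 genes the median Spearman correlation over 460 cells was 0.197 across 45 pairs, of which 42 were positive, against a median of 0.0151 and 61% positive over all pairs of 13972 genes counted in at least 10% of cells. All points share 1 table and scaling to their own totals. For the 6 genes counted in at least 90% of cells (Aldoa, Gapdh, Pkm, Ldha, Eno1 and Tpi1) all 15 pairs lay above 0.2, with a median of 0.322. Only 2.59% of all pairs of 2364 genes detected as often lay above 0.2. Aldoa with Pkm was the closest pair at 0.537, followed by Pkm with Ldha at 0.493 and Aldoa with Gapdh at 0.390.

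The closest group was the run of enzymes from aldolase to lactate dehydrogenase, a grouping made after the values were seen. Its 21 pairs had a median of 0.307 and a lowest value of 0.205, for Pgk1 with Tpi1. Between these 7 and the 3 entry genes the median was 0.0729. Slc2a1 reached 0.197 with Gapdh and 0.158 with Pkm over all cells. Within Rgs5-over-Pdgfra cells these values were 0.309 and 0.313, inside the range of the pairs among the 7 enzymes, and within the others 0.115 and 0.133. Over all cells Hk2 was below 0 with Aldoa (-0.167) and Pkm (-0.138). Its value with Aldoa was -0.0658 within Rgs5-over-Pdgfra cells and -0.102 within the others, and with Pkm -0.0160 and -0.0397. Hk2 correlated best with Slc2a1 among the 10 (0.296), and that value was 0.0560 in the columns low in Sftpc and 0.406 in the others. Pfkp reached at most 0.0989 with any of the others, its value with Gapdh. Pgk1, with fewer counts than Hk2 or Pfkp, reached 0.284 with Gapdh.

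Measured against every other named gene, 6 of the 10 had another of the 10 as their closest partner. Pkm was closest to Aldoa, Ldha and Tpi1, Aldoa to Pkm and Gapdh, and Gapdh to Pgk1. For Slc2a1 the closest gene was Pim1, a kinase gene (0.305), for Pfkp Ggta1, a galactosyltransferase gene (0.213), and for Hk2 Tnfaip3, which encodes the NF-kB inhibitor A20 (0.535). These are likenesses over 460 cells that share 1 table.

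**Figure D2:**
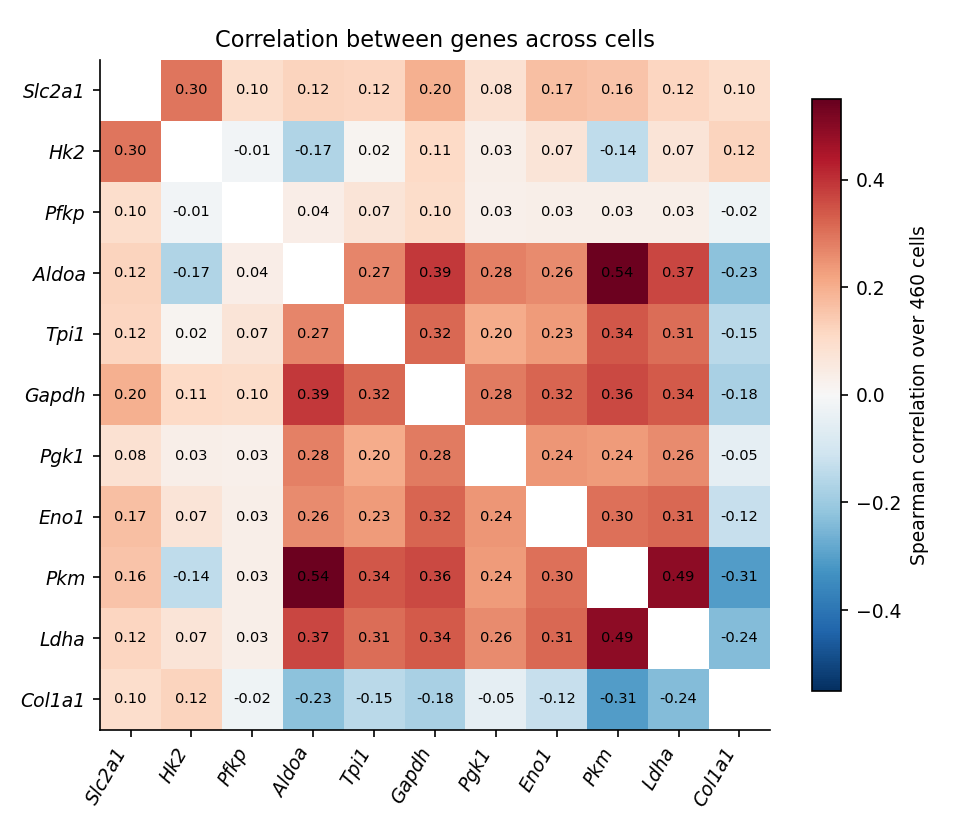
Spearman correlation across 460 cells between the 10 genes, in pathway order, and Col1a1, with the value in each square (red above 0, blue below). The 7 genes from Aldoa to Ldha form a block of values from 0.205 to 0.537, while Hk2 is below 0 with Aldoa (-0.167) and Pkm (-0.138).

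Col1a1 ran weakly against these 7 enzymes. Pkm had a Spearman correlation of -0.307 with it, Ldha -0.237, Aldoa -0.228, Gapdh -0.179, Tpi1 -0.147, Eno1 -0.125 and Pgk1 -0.0501. Pfkp stood at -0.0222, and Slc2a1 and Hk2 on the other side at 0.0986 and 0.123. The median of the 10 was -0.136, against -0.0277 over all genes tested and -0.0554 over those counted in at least 90% of cells, so values below 0 were common among abundant genes. Col1a1 itself differed between the classes, with 1740 CPM in Rgs5-over-Pdgfra cells and 2850 CPM in the others. Within Rgs5-over-Pdgfra cells Pkm stood at -0.142 and Ldha at -0.0642, and within the others at -0.189 and -0.269. Gapdh stood below 0 in both, at -0.187 and -0.243. The value of Hk2 was 0.0264 within Rgs5-over-Pdgfra cells and -0.137 within the others, where the pooled value was above 0.

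The cell classes differed most in Hk2. Hk2 was at 43.05 CPM (interval 39.98 to 46.3) in Rgs5-over-Pdgfra cells, against 129.8 CPM (125.4 to 134.3) in the other cells, a log2 difference of -1.59. Single cells ranged from 0 to 1053 CPM around a median of 11.2 in Rgs5-over-Pdgfra cells, and from 0 to 1359 CPM around 57.1 in the others. The ranges overlap over nearly their whole length. The upper quartiles were 38.1 and 189.4 CPM, so the shift lay in the higher cells as well as in the median. It was counted in 55.7% (48.5 to 62.6) of Rgs5-over-Pdgfra cells and in 78.99% (73.5 to 83.8) of the others. Total counts were lower in Rgs5-over-Pdgfra cells (medians of 76944 and 96654), and at equal depth the shares were 47.4% and 74.5%.

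Hk2 was also the only one of the 10 past 1.5-fold, in a background where 17.2% of 9831 genes of at least 10 CPM passed that limit in either direction, 7.75% higher and 9.49% lower in Rgs5-over-Pdgfra cells. A count of 1 in 10 is near that background. The limit cuts close to others: Pgk1 was 1.49-fold higher (30.5 against 20.5 CPM), Pkm 1.48-fold (428.2 against 288.995 CPM) and Aldoa 1.41-fold (535 against 380 CPM) in Rgs5-over-Pdgfra cells. Under the planned and added alternatives 1 to 4 of the genes passed. Hk2 passed in all of them, with log2 values from -2.35 to -1.44.

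The abundant enzymes leaned the other way. Median levels per cell in Rgs5-over-Pdgfra cells and in the others were 452.8 and 322.3 CPM for Aldoa, 374.2 and 254.5 CPM for Pkm, and 347.9 and 288.6 CPM for Ldha. These medians differ while the ranges over cells overlap. Tpi1 had 151.3 CPM in Rgs5-over-Pdgfra cells and 115.7 CPM in the others, and Pfkp 114.3 and 98.7 CPM. Eno1 (90.4 and 87.98 CPM) had overlapping intervals, and Gapdh was close at 547 and 506 CPM with medians of 459.5 and 465.5. The median log2 difference of the 10 was 0.225, against 0.0202 over all 9831 genes, and 8 of 10 were higher, as were 52.9% of all genes. Summed, the 10 genes stood at 2390 and 2051 CPM.

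Slc2a1 was lower, at 73.2 CPM (69.2 to 77.4) in Rgs5-over-Pdgfra cells and 102.8 CPM (98.9 to 106.7) in the others, a log2 difference of -0.49. This difference rested on the columns with Sftpc, where the values were 63.4 and 106.03 CPM. In the columns low in Sftpc they were 98.02 and 90.5 CPM, the other direction. Slc2a3, the GLUT3 gene, was higher in Rgs5-over-Pdgfra cells at 128.03 against 76.1 CPM, a log2 difference of 0.75. Hk1 was at 68.5 CPM in Rgs5-over-Pdgfra cells and 60.03 CPM in the others.

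**Figure D3:**
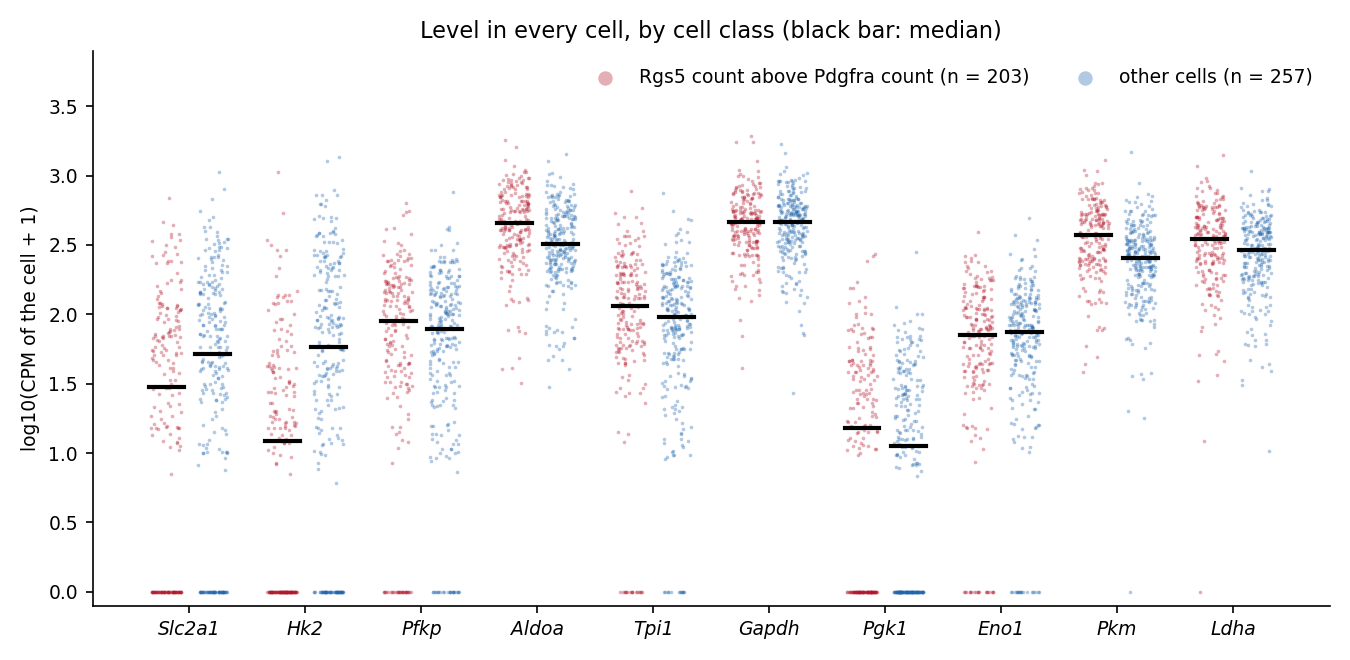
Level in every cell as log10(CPM + 1), with Rgs5-over-Pdgfra cells (red, 44.1% of 460 cells) left of the other cells (blue, 55.9%) for each gene and black bars at the medians. The medians of Hk2 stand apart (11.2 and 57.1 CPM), those of Gapdh lie together (459.5 and 465.5 CPM), and cells with no count line up at 0.

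The split by Sftpc gives the class differences within each pooled set of columns, not within single runs. For Hk2 the log2 difference was -2.05 in the columns low in Sftpc and -1.44 in the others, for Aldoa 0.51 and 0.47, for Pkm 0.46 and 0.59, and for Ldha 0.34 and 0.19. For Pgk1 (-0.10 and 0.80) and Tpi1 (-0.12 and 0.55) the sign differed, as it did for Slc2a1 (0.12 and -0.74) and Eno1 (-0.09 and 0.08). Rgs5-over-Pdgfra cells made up 50.4% of the cells low in Sftpc and 41.7% of the others.

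**Figure D4:**
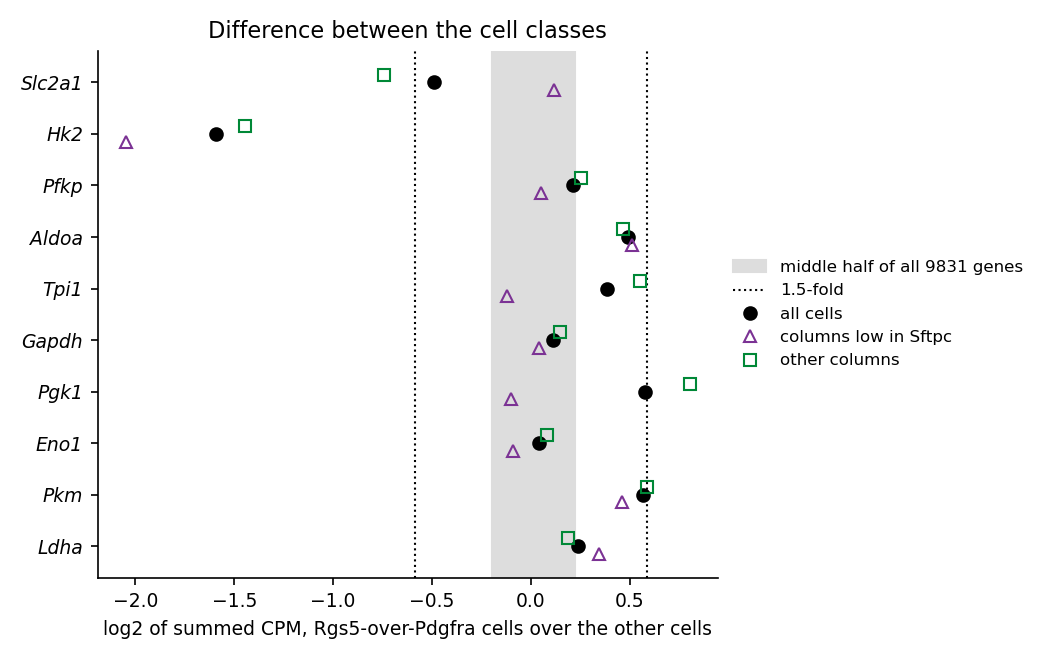
Log2 ratio of summed CPM in Rgs5-over-Pdgfra cells over the other cells, for all cells (black circles), columns low in Sftpc (triangles) and other columns (squares), with the middle 50% of 9831 genes in grey and 1.5-fold as dotted lines. Hk2 lies beyond the limit in all 3 sets of cells (-1.59, -2.05 and -1.44), and Slc2a1, Tpi1, Pgk1 and Eno1 change side between the column sets.

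Markers of other cell types also differed between the classes. Of 8 epithelial or lung tumour markers of at least 10 CPM, 7 were past 1.5-fold higher in Rgs5-over-Pdgfra cells, as were 6 of 6 immune markers. Of all genes of at least 10 CPM 7.75% were higher by that limit. The summed epithelial level ranged from 0 to 23535 CPM around a median of 748 in Rgs5-over-Pdgfra cells, and from 0 to 25783 around 626 in the others. Immune markers ranged from 0 to 10683 CPM around 80.7, and from 0 to 7109 around 75.9. The erythroid list of 5 was at most 2.38 CPM in either class, with 1 member at 0. Without the 10% of cells richest in epithelial counts the Hk2 difference was -1.94 on the log2 scale. Without those richest in immune counts it was -1.85, and over all cells -1.59. Both cuts were chosen after the values were seen, and cells with fewer such counts were kept. In the same alternatives the median log2 difference of all 10 genes lay between 0.215 and 0.228. The part of epithelial or immune counts in the differences of Hk2 and of the other 9 genes was not tested.

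Depth and mitochondrial share moved with some genes. On the scaled values Gapdh had a Spearman correlation of 0.363 with total counts, Hk2 0.279, Eno1 0.275 and Slc2a1 0.229, and the others 0.0839 to 0.128. In thinned cells the values for Gapdh and Hk2 were 0.302 and 0.261. Hk2 was at -0.242 and Slc2a1 at -0.166 with the mitochondrial percentage, and their part in the results was not tested.

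The genes around the pathway were followed as lists. Of all genes of at least 10 CPM 17.2% passed 1.5-fold, 7.75% higher and 9.49% lower in Rgs5-over-Pdgfra cells. With so few genes per list, the counts below are a description. Of 19 other glycolytic enzymes 7 had at least 10 CPM, and 2 passed 1.5-fold, both lower in Rgs5-over-Pdgfra cells. These were Eno2 (6.19 against 19.7 CPM) and Bpgm, for bisphosphoglycerate mutase (29.4 against 56.5 CPM). The most counted were Gpi1, for glucose 6-phosphate isomerase (211.9 CPM), Hk1 and Bpgm (45.7 CPM). Of 5 PFKFB regulators and Tigar, which set the fructose 2,6-bisphosphate that activates phosphofructokinase, 3 had at least 10 CPM. Pfkfb4 was higher in Rgs5-over-Pdgfra cells (35.2 against 12.7 CPM) and Pfkfb3 lower (66.6 against 105.9 CPM), and Pfkfb2 stood at 14.9 CPM over all cells. Among glucose transporters only Slc2a3 of 5 passed the limit, and Slc2a13 (27.01 CPM) and Slc2a10 (22.04 CPM) followed Slc2a3 and Slc2a1 in level.

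Branches that leave glycolysis were counted in the same way. Of 6 hexosamine and hyaluronan precursor genes of at least 10 CPM, 3 were lower in Rgs5-over-Pdgfra cells, against 9.49% of all genes. They were Gfpt2, an entry enzyme of hexosamine synthesis (75.8 against 125.2 CPM), Uap1 (32.3 against 56.8 CPM), which makes UDP-N-acetylglucosamine, and Ugdh (41.2 against 86.4 CPM), which makes the UDP-glucuronate used for hyaluronan. Gfpt1 did not differ by that limit (120.6 against 119.4 CPM). In the pentose phosphate pathway none of 8 passed, with H6pd (663 CPM), G6pdx (78.8) and Pgd (58.7) in front. None of 2 serine synthesis genes passed, with Shmt2 at 37.6 CPM, Psat1 at 21.3 and Psph at 8.52, nor did any of 2 gluconeogenic genes, where Pck2 (35.7 CPM), G6pc3 (30.98) and Fbp2 (5.66) were most counted. Of 8 glycogen genes 2 passed, against 17.2% of all genes in either direction. Gbe1, the branching enzyme, was higher (17.8 against 8.89 CPM) and Gyg, glycogenin, lower (47.4 against 94.9 CPM) in Rgs5-over-Pdgfra cells. Gys1, glycogen synthase, stood at 38.2 CPM over all cells.

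For genes that handle pyruvate and for the lists after them, the share of all genes past 1.5-fold in either direction, 17.2%, is the background. No gene of lactate and pyruvate transport passed among 4, led by Bsg (60.2 CPM), Mpc2 (29.9) and the lactate exporter Slc16a3 (23.2). Of 11 pyruvate dehydrogenase genes, led by Pdha1 (90.2 CPM), Dlat (48.6) and Pdk2 (30.6), the kinases Pdk1 and Pdk4, which switch the complex off, differed in opposite directions. Pdk1 was at 19.99 against 10.1 CPM and Pdk4 at 12.97 against 26.8 CPM in Rgs5-over-Pdgfra cells and the others. None of 15 TCA cycle genes passed, with Sdhc at 218.1, Ogdh at 201.8 and Idh3g at 171.2 CPM. Of 17 nuclear-encoded respiratory chain genes only Ndufa4 passed (27.4 against 45.3 CPM), with Atp5b at 253.2, Atp5a1 at 240.03 and Cox6c at 102.5 CPM over all cells.

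Among 8 HIF factors and regulators 1 passed the limit, a share near that background. It was Epas1, which encodes HIF-2 alpha, at 891 CPM in Rgs5-over-Pdgfra cells and 347.2 CPM in the others. Hif1a (135.4 and 161.03 CPM) and Arnt (84.1 and 101.2 CPM) were not. Of 12 hypoxia response genes outside glycolysis 3 were lower in Rgs5-over-Pdgfra cells and none higher, against 9.49% and 7.75% of all genes. They were Vegfa (163.1 against 255.5 CPM), Adm (3.48 against 20.3 CPM) and P4ha2 (26.3 against 42.2 CPM). Loxl2 (618 CPM) and P4ha1 (204.9 CPM) were the other abundant ones. Among 10 regulators linked to MYC and mTOR only Mlxip, a glucose-sensing factor, passed (72.3 against 119.2 CPM), with Akt2 at 232.1, Txnip at 216.8 and Myc at 178.6 CPM.

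Scores of whole lists were also compared across cells. The mean z score of the 10 genes correlated best with translation factors (0.403), hypoxia response genes outside glycolysis (0.344), TCA cycle genes (0.326) and nuclear-encoded respiratory chain genes (0.293). It was at 0.0224 with G2/M genes, -0.197 with collagens and 0.154 with pericyte markers. Broken down by gene, Gapdh (0.322), Ldha (0.312), Aldoa (0.276) and Pkm (0.272) followed the TCA cycle score, while Slc2a1 (0.0117) and Hk2 (-0.0234) stood near 0. With immediate early genes, a class also known to respond to tissue dissociation, Hk2 (0.383), Slc2a1 (0.207) and Gapdh (0.160) were highest, and Ldha (-0.00705), Aldoa (-0.0288) and Pkm (-0.0667) lowest. Within Rgs5-over-Pdgfra cells Hk2 stood at 0.209 with them, and within the others at 0.397. With pericyte markers Pkm was at 0.343 and Hk2 at -0.374. Within Rgs5-over-Pdgfra cells Pkm stood at 0.227 and Hk2 at -0.388, and within the others at 0.153 and 0.0468, where Hk2 was on the other side of 0.

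**Figure D5:**
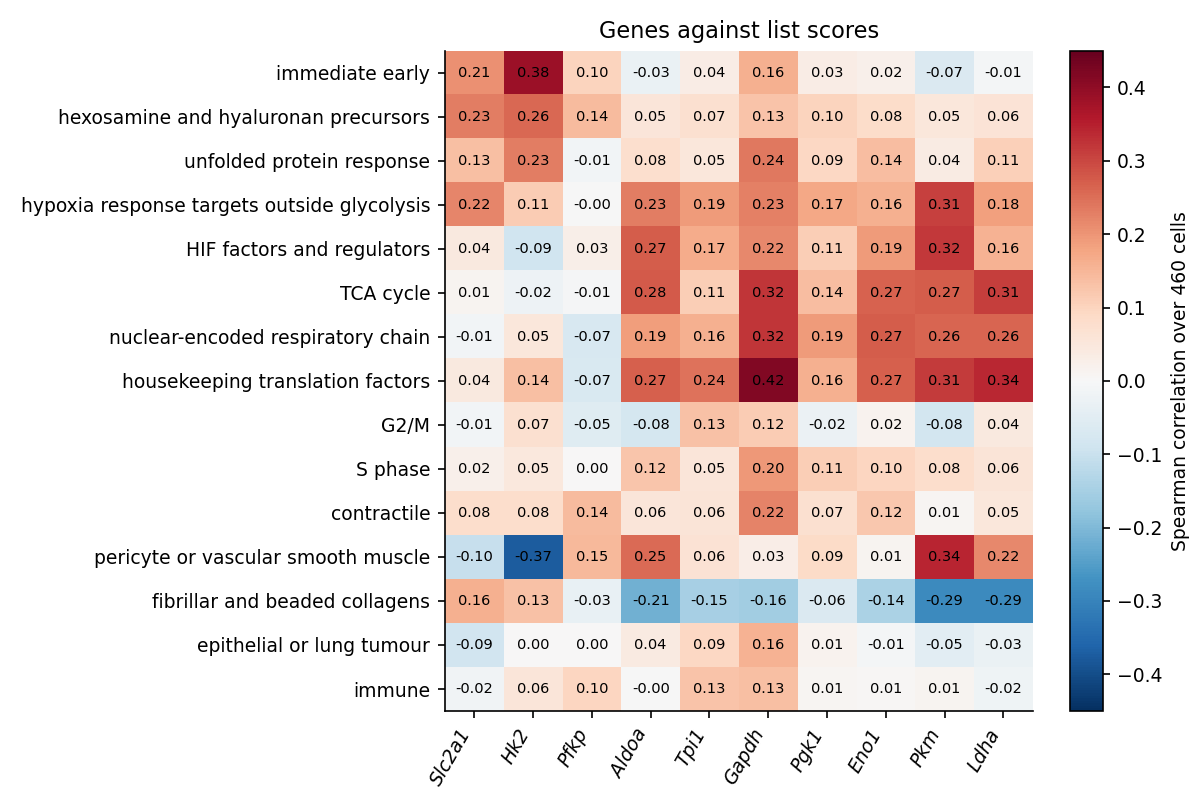
Spearman correlation across 460 cells of each of the 10 genes (columns, in pathway order) with the mean z score of 15 gene lists (rows), with values printed. Immediate early genes are highest with Hk2 (0.383) and Slc2a1 (0.207), and the TCA cycle and translation factor rows are highest with the genes from Aldoa to Ldha.

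The genes outside all metabolic lists whose cell-to-cell pattern was most like the mean of the 10, among 10419 genes counted in at least 25% of cells (median 0.0442, 95th percentile 0.189), were mainly abundant cytoskeletal and housekeeping genes. They were the actin regulators Arpc2 (0.424), Pfn1 (0.422) and Cfl1 (0.347), tropomyosin Tpm4 (0.378), the prolyl isomerase genes Ppia (0.370) and Fkbp1a (0.357), the phosphatase gene Ppp1ca (0.339), tubulin Tubb5 (0.338), Anxa2 (0.337) and the aldolase copy Aldoart1 (0.338). Of the 100 genes nearest to that mean, 4 belonged to the metabolic lists, as did 1.16% of all genes ranked, with Gpi1 (0.389) and Pgam1 (0.315), both glycolytic enzymes, first. At the far end were Lama2 (-0.305), Col1a2 (-0.293), Col3a1 (-0.292), Tmtc1 (-0.289) and Malat1 (-0.286). These likenesses are over cells of 1 sample that share depth, and no function or control is inferred from them.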

How the data were processed

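Single-cell RNA-seq of 460 cells was analysed from a table of molecular barcode counts that the authors deposited, whole numbers with no normalization per gene and cell. STAR, HTSeq and mm10 are named in the submitters' processing notes, with no versions, and the step from reads to barcode counts is not given in the sources used here. All cells form 1 group, no cell was removed and no doublet caller was run. Possible doublets were addressed by an alternative lacking the top 5% of cells by total. For 113 repeated symbols the row with the most counts was used.

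CPM is the summed count scaled to 1000000, and single cells were scaled to 10000 and taken as log(1 + value) for correlations. Thinning drew 56586 counts per cell without replacement (the 10th percentile of totals; 46 shallower cells left out). Intervals are 95% exact Poisson or Clopper-Pearson. Gene lengths are merged exons of GENCODE vM21, found for 48058 gene identifiers. A column counted as low in Sftpc if over 50% of its 20 neighbours fell below 30 CPM. Differences between cell classes are ratios of summed CPM, called past 1.5-fold, with no test, since the labels name no animals. List scores are mean z values of members counted in at least 10% of cells.

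Named genes are the 10 members, their isozymes, the 3 most counted and all called genes (at least 10 CPM) of each pathway list, the closest gene of each member, and the 10 most and 5 least similar genes outside the metabolic lists. Items withheld from this text are not reported here. Members and lists were chosen with earlier results of these data known. The steps were tested on simulated counts. matplotlib 3.10.9, scipy 1.17.1 and pandas 2.3.3 with numpy 2.4.6 ran under Python 3.11.15.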

Additional observations from a re-analysis of the deposited data

How the results depend on the processing

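No paired analysis was possible because there is 1 group and no replicate. The summed level of the 10 genes (2186 CPM) moved beyond its counting interval to 2147 CPM without the 5% of cells with the most counts, 2269 and 2160 in columns low in Sftpc and in the others, 2207 in cells of at least 50000 counts, 2223 with copies added, 2512.5 with totals lacking mitochondrial and the 50 most abundant genes, 2115 as the mean and 1995 as the median of single cells, and 2156 and 2164 without the 10% of cells highest in epithelial or in immune counts, both chosen after seeing the data. The median correlation between the genes moved to 0.322 over the 6 genes counted in at least 90% of cells and to 0.133 within cells with Rgs5 not above Pdgfra. The median correlation with Col1a1 (-0.136) moved to -0.203 over those 6 genes and to -0.0819 within Rgs5-over-Pdgfra cells. Of 150 correlations of single genes with Col1a1 under alternatives 8 changed sign. In columns low in Sftpc Slc2a1 was at -0.0910 and Pfkp at 0.0362, within Rgs5-over-Pdgfra cells Slc2a1 was at -0.0182, and within cells with Rgs5 not above Pdgfra Hk2 was at -0.137 and Pgk1 at 0.0132. The other changes were of Pfkp, to 0.00249, 0.00508 and 0.00323. Of 150 log2 differences of single genes 11 changed sign. In columns low in Sftpc Pgk1 (-0.10), Tpi1 (-0.12), Slc2a1 (0.12) and Eno1 (-0.09) did so, and the others were Eno1 and Gapdh, whose values lay near 0. The median log2 difference between the classes (0.225) was 0.0460 in columns low in Sftpc. The number of the 10 genes past 1.5-fold, 1 over all cells, was 2 in thinned cells, 4 in columns not low in Sftpc, 3 in cells of at least 50000 counts, 2 without the 20 cycling cells, 2 with the reduced totals, 2 as the median of single cells, 2 without cells near the class limit, 3 with classes set on thinned counts and 2 without the cells richest in immune counts. Pkm, Pgk1 or Slc2a1 joined Hk2 in these settings. Over genes of at least 1 CPM the background past 1.5-fold was 27.4% in place of 17.2%. The cause of these moves was not tested. Of 530 values for single genes under alternatives, 94 moved beyond their counting interval, the correlation tolerance of 0.05 or to the other side of the 1.5-fold limit, besides the values of -0.0910 for Slc2a1 and -0.137 for Hk2. The number of genes counted in at least 90% of cells stayed between 5 and 7. Depth limits Pgk1, Hk2 and Slc2a1 most, with median counts per cell of 1, 2 and 4.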

Other observations

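The genes closest to Hk2 were not enzymes of the pathway. They were picked out after the values were seen and are a description over 460 cells of 1 sample. After Tnfaip3 (Spearman 0.535 with Hk2), the genes closest to Hk2 were Csrnp1 (0.531), the orphan nuclear receptor gene Nr4a2 (0.516), Nfkbiz (0.502), Gadd45b (0.488), Irs2, an insulin receptor substrate gene (0.488), Fosl2 (0.486), the NF-kB inhibitor gene Nfkbia (0.483), Nr4a1 (0.481) and Ccnl1 (0.455). With Tnfaip3 the value was 0.337 within Rgs5-over-Pdgfra cells and 0.516 within the others. It was 0.527 in the columns low in Sftpc, 0.537 in the other columns and 0.542 in thinned cells. For the genes after Tnfaip3 the values within Rgs5-over-Pdgfra cells were lower still, from 0.209 (Nr4a2) to 0.331 (Gadd45b). Within the other cells they lay between 0.455 (Irs2) and 0.594 (Csrnp1). The genes closest to Hk2 were all lower in Rgs5-over-Pdgfra cells, as Hk2 was, with log2 differences from -2.00 for Nr4a2 to -0.58 for Nr4a1. The largest were those of Nr4a2 (105.8 against 422.1 CPM), Irs2 (158.8 against 507 CPM) and Tnfaip3 (239.3 against 742 CPM). Of all genes of at least 10 CPM 9.49% were lower past 1.5-fold. Because the genes were picked by likeness to Hk2 over all cells, their shared direction is not a separate result.

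For Slc2a1 the closest values were weaker. Pim1 (0.305), Nfkbia (0.304), Sik1, a salt-inducible kinase gene (0.301), and Hk2 (0.296) came first, followed by Vegfa (0.284), the angiogenic growth factor gene. With Vegfa it stood at 0.296 within Rgs5-over-Pdgfra cells and 0.210 within the others. Pfkp had no partner above 0.213.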
